A study of Mus musculus with 12 samples.

Results

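The genes described here are the Wnt ligands, their receptors, the secreted proteins that block them, and a few regulators and targets of the pathway, measured in MYCN-driven neuroendocrine tumors of mice. They were chosen by name: every gene whose symbol begins with Wnt, Fzd, Sfrp or Dkk and a digit, plus Lrp5, Lrp6, Axin2, Lef1, Tcf7l1, Tcf7l2, Wif1, Rspo1 to Rspo3, Lgr4, Lgr5, Nkd1, Znrf3 and Rnf43. The choice gave 53 of the 18193 genes on the array that a probe set names with a single symbol; Tcf7, also on the list, is not analysed here. Each gene was read from 1 probe set, the one with the highest mean over the 12 tumors.

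All tumors came from LSL-MYCN;hGFAP-Cre mice of mixed genetic background, in which a Cre recombinase driven by the human GFAP promoter removes a stop cassette and switches on MYCN together with luciferase in GFAP-positive cells and their descendants. The comparison is between 9 pancreatic tumors and 3 pituitary tumors, whose site is labelled as brain, and every tumor in both groups carries the transgenes and was untreated. The sources used here do not give the age of the mouse behind each array. Some mice of this line bear tumors at both sites, and which tumors share a mouse is not given. The tests treat each tumor as independent, and their p-values set a difference against the spread between these tumors. If some tumors share a mouse, that assumption does not hold.

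Wnt proteins are secreted lipid-modified ligands that bind Frizzled receptors and the co-receptors Lrp5 and Lrp6, which spares beta-catenin from destruction and lets it act with Tcf and Lef factors on target genes. Sfrp proteins and Wif1 bind the ligands outside the cell, and Dkk proteins such as Dkk1 bind the Lrp co-receptors. R-spondins, through Lgr4 and Lgr5, hold back Znrf3 and Rnf43, the membrane ubiquitin ligases that remove Frizzleds from the cell surface. In development the pathway takes part in the growth of both the pancreas and the pituitary.

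Values are log2 signals, so a difference of 1 is a doubling of signal, and differences are pancreatic minus pituitary. The median of all probe sets lay between 5.45 and 5.69 in the pancreatic tumors and between 5.53 and 5.61 in the pituitary tumors. It is used here as a rough line below which a signal cannot be told from background. Marker genes separated the sites as labelled. The endocrine pancreas list (9 measured genes) summed to 78.80 to 108.76 log2 units in pancreatic tumors and 54.95 to 65.65 in pituitary tumors, and the anterior pituitary list (9 measured genes) to between 46.17 and 51.04 in pancreatic tumors and between 88.40 and 106.78 in the pituitary ones. Pancreatic tumor 2 stood apart. Its mean over 5 neuroendocrine markers was 9.33, against 12.29 to 13.27 in the other pancreatic tumors, and its mean over 3 hepatocyte markers was 14.66, against 5.38 to 12.44. Pituitary tumors 6 and 8 had means of 11.26 and 11.02 over 7 markers of astrocyte-related glia, against 7.40 in pituitary tumor 7 and 5.69 to 6.92 in the pancreatic tumors (4 of the 7 were higher in pituitary tumors by the test used below). The mean over 6 neuron markers followed them, at 11.16 and 11.19 in pituitary tumors 6 and 8. It was 7.97 in pituitary tumor 7 and 5.54 to 8.31 in the pancreatic tumors (2 of the 6 were higher in pituitary tumors by the same test). Single genes differed: in pituitary tumor 7 Slc17a6, Snap25 and Syt1 were also above every pancreatic tumor, while Gad1, Rbfox3 and Nefl were not. The part of these tissues in the results below was not tested. A value given without a tumor leaves out all that differs in that tumor, so it is no test of a tissue.

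Most genes of the set did not pass the test between the sites. No gene of the 53 was higher in pancreatic tumors at an adjusted p under 0.05 (limma, Benjamini-Hochberg over all 45037 probe sets), and 4 were higher in pituitary tumors, which is 7.55% of the set: Dkk3, Fzd7, Fzd1 and Axin2. Over all 18193 genes the shares were 1.63% for the pancreatic and 4.29% for the pituitary direction, and the set's counts are too small to be read apart from these. Without adjustment, at p under 0.05, 1 member (Dkk2) was higher in pancreatic tumors, and 5 were higher in the pituitary ones (the 4 called and Rspo3). A test with unmoderated variance called 0 and 2 at the adjusted threshold. The median difference of the set was -0.03, against 0.04 over all genes. In 5 members the 2 groups did not overlap, Fzd1, Dkk3 and Axin2 being lower and Dkk2 and Sfrp5 higher in every pancreatic tumor than in any pituitary tumor. Over all genes 9.42% did not overlap, 4.21% with the pancreatic and 5.21% with the pituitary tumors on top, so the set's 5 are close to the background. In bulk tissue, fewer cells of a type and less RNA per cell cannot be told apart.

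**Figure D1:**
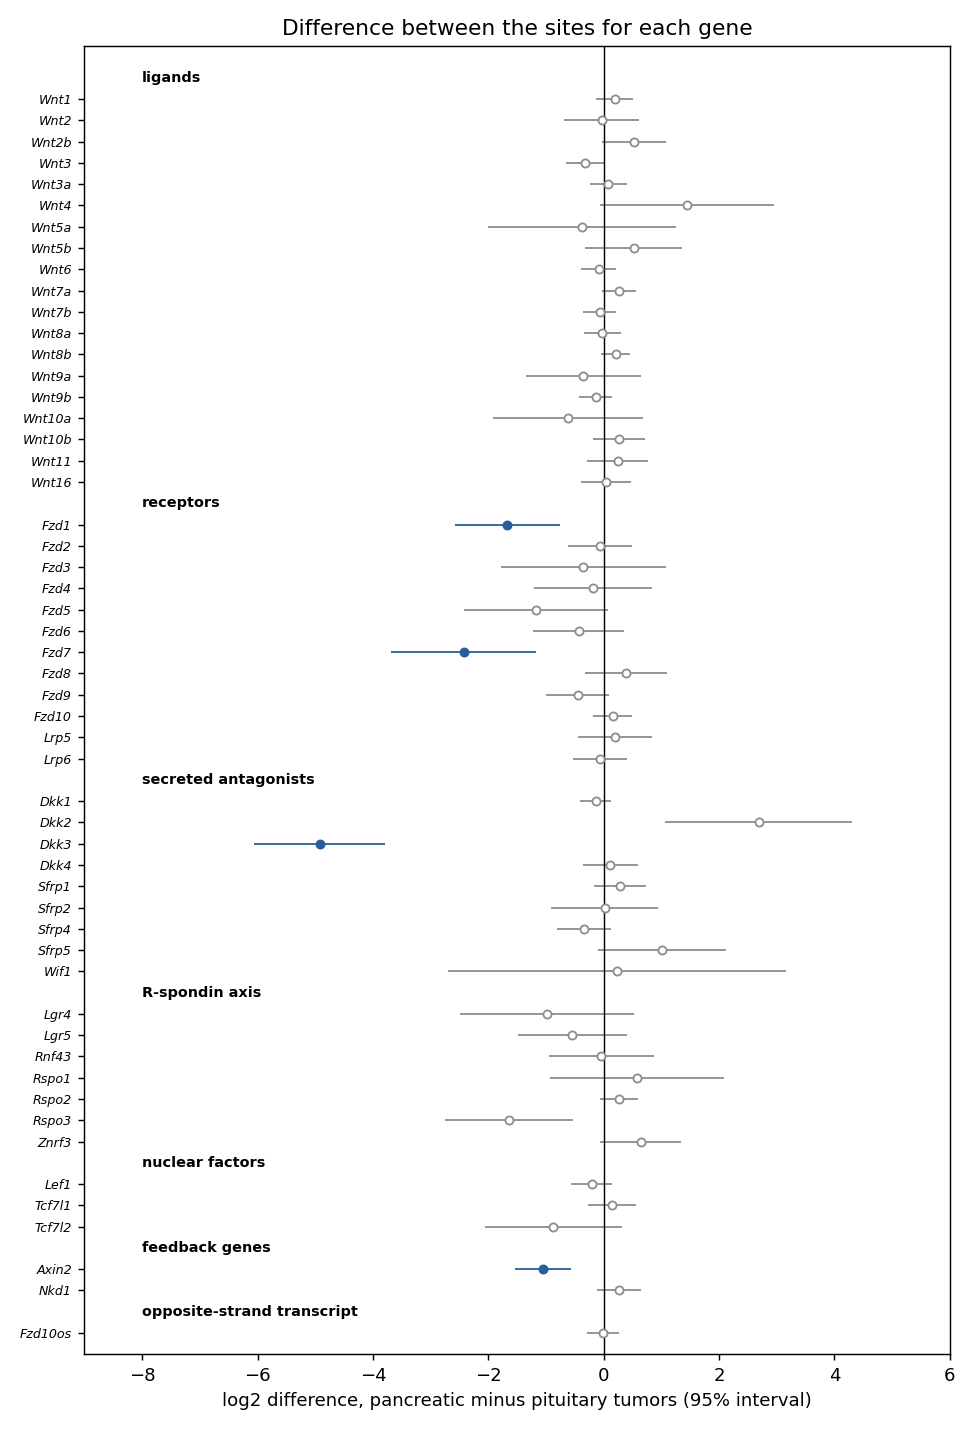
Difference in log2 signal, pancreatic minus pituitary, of the 53 genes grouped by role, with 95% confidence intervals from limma; filled points passed an adjusted p of 0.05. The 4 filled points all lie left of 0, between -4.92 and -1.05, and of the open ones only the intervals of Dkk2 and Rspo3 leave out 0.

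Signal itself varied widely across the set. A total of 18 members (34.0%) lay above the array median in all 12 tumors, against 52.2% of all genes. Another 12 (22.6%) lay at or below it in all 12, against 20.5% of all genes, and 23 crossed it. The spread between pancreatic tumors was close to that of other genes, with a median SD of 0.38 for the set and 0.43 for all genes.

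**Figure D2:**
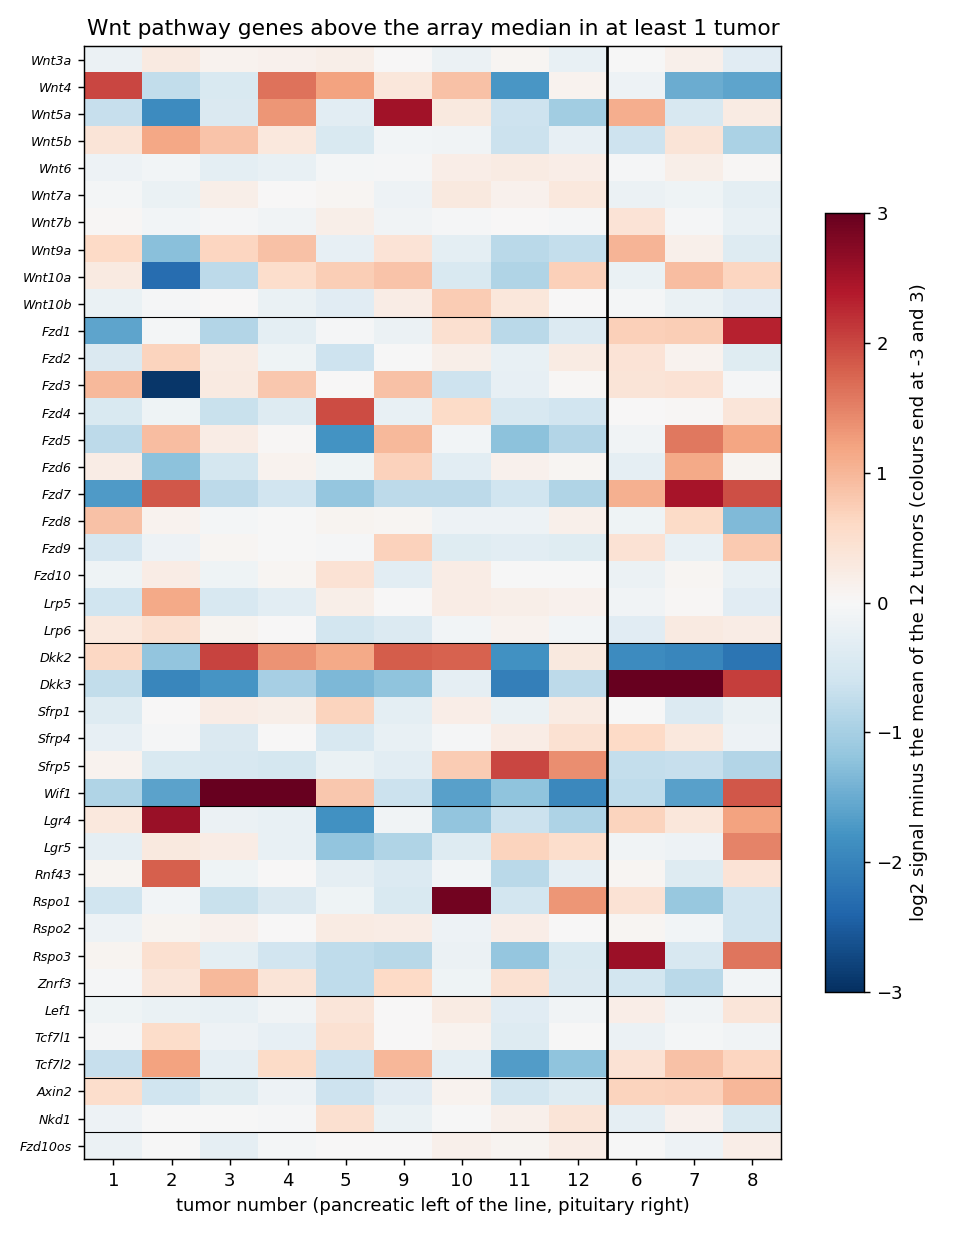
Log2 signal minus the gene's mean over the 12 tumors for the members above the array median in at least 1 tumor (rows, by role), with pancreatic tumors left and pituitary tumors right of the thick line; red is above the mean, blue is below it, and colours end at -3 and 3. Dkk3 is blue in the pancreatic and red in the pituitary columns, and pancreatic tumor 2 has its own pattern of high Lgr4, Fzd7 and Rnf43 and low Fzd3 and Wnt10a.

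Of the 19 Wnt ligands, 0 passed the adjusted threshold in either direction, and 0 passed an unadjusted p of 0.05 (limma). Their differences ran between -0.61 (Wnt10a) and 1.44 (Wnt4). Wnt1, Wnt2, Wnt2b, Wnt3, Wnt8a, Wnt8b, Wnt9b, Wnt11 and Wnt16, 9 in all, stayed at or below the array median in every tumor, and Wnt3a, Wnt4, Wnt6, Wnt7a, Wnt7b and Wnt10a lay above it in every tumor. Among these 6 the probe sets of Wnt3a, Wnt6, Wnt7a and Wnt7b barely moved, each spanning 0.30 to 0.54 over the pancreatic tumors, whereas those of Wnt4 and Wnt10a spanned 3.74 and 3.14.

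Wnt4, a ligand known from kidney and gonad development and from the growth of the pituitary, read 10.04, 7.31, 7.58, 9.66, 9.25, 8.38, 8.93, 6.30 and 8.15 in pancreatic tumors 1, 2, 3, 4, 5, 9, 10, 11 and 12, and 7.88, 6.56 and 6.45 in pituitary tumors 6, 7 and 8. Pancreatic values covered the whole pituitary range, with 6 of the 9 above its top. The difference was 1.44 (95% interval -0.07 to 2.95) and missed the threshold (limma adjusted p = 0.282), and a further probe set gave 1.34 (adjusted p = 0.268). Wnt10a, a ligand of skin, teeth and hair, ran between 6.53 in pancreatic tumor 2 and 9.67 in pancreatic tumor 9, and was 8.63, 9.75 and 9.47 in pituitary tumors. Wnt5a, which signals largely without beta-catenin, was above the array median only in pancreatic tumors 4 (6.35) and 9 (7.56), of the 9, and in pituitary tumor 6 (6.12). Its difference of -0.38 lay well inside the spread (adjusted p = 0.818).

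For a few ligands the choice of probe set mattered. Wnt7a rests on a probe set with little spread, and another of its 3 read 5.01 to 5.58 in pancreatic tumors and 6.34, 5.05 and 7.73 in pituitary tumors 6, 7 and 8, a difference of -1.11 (limma adjusted p = 0.133). The high readings fall in the 2 pituitary tumors with high glial markers. A second Wnt9a probe set passed the threshold at 0.49 (adjusted p = 0.0446), but lay at or below the array median in all 12 tumors, where the set read in the member list gave -0.35 (adjusted p = 0.712). The other probe sets of Wnt6 (4.60 to 5.31) and Wnt7b (4.24 to 5.00) lay at or below the array median in all 12 tumors. Wnt5b and Wnt3 were read from sets of a type that Affymetrix marks as able to bind related transcripts.

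Among the 12 receptors and co-receptors, 2 of the 10 Frizzleds, Fzd1 and Fzd7, were higher in pituitary tumors and the other 10 genes did not pass. Fzd1 and Fzd7 are seven-pass receptors for Wnt ligands. Their promoters are shown, with that of Axin2, because these are 3 of the 4 genes that differed between the sites and Axin2 is itself a target of beta-catenin. Each is the 250 bases before the start of the gene, read in the direction of transcription, from RefSeq on mouse build GRCm38.p6. Capitals mark the Tcf/Lef core, CTTTGA or CTTTGT, on either strand (TCAAAG and ACAAAG are the reverse forms).
Fzd1, chr5:4758217-4758466, minus strand: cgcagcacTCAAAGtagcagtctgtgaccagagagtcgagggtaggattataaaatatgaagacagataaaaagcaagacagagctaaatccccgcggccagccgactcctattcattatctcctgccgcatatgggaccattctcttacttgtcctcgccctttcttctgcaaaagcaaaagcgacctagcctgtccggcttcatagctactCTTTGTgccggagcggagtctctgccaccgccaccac
Fzd7, chr1:59481897-59482146, plus strand: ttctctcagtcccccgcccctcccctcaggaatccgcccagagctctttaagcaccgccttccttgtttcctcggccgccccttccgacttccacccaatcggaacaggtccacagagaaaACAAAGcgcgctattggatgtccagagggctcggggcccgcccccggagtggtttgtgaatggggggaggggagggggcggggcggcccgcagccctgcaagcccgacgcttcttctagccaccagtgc
Axin2, chr11:108920099-108920348, plus strand: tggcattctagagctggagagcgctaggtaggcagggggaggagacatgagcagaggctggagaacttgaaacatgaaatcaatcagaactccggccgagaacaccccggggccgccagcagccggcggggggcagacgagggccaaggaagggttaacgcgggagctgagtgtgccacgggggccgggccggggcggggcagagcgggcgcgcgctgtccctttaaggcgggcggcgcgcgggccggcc

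The Fzd1 window held 2 matches, the Fzd7 window 1 and the Axin2 window none. The core is short, and 10 of the 42 promoter windows of the members hold at least 1 (23.8%), against 27.6% of all 32851 windows of this length. Counted by gene, these are 10 of 34 members. A match is only a run of letters, and the absence of one says nothing about sites elsewhere in the gene.

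Fzd7 read 4.93, 8.50, 5.84, 6.05, 5.47, 5.86, 5.85, 6.04 and 5.73 in pancreatic tumors 1, 2, 3, 4, 5, 9, 10, 11 and 12, and 7.70, 9.10 and 8.56 in pituitary tumors 6, 7 and 8. Pancreatic tumor 2 lay among the pituitary tumors and the other 8 below all of them. The mean was 6.03 ± 0.99 in pancreatic tumors and 8.45 ± 0.71 in pituitary tumors (SD, n = 9 and 3), a difference of -2.42 (SE 0.58, limma adjusted p = 0.0342). No fold is given, since 2 of the 9 pancreatic tumors were at or below the array median. Without tumor 2 the difference was -2.73 (adjusted p = 0.000287). Without any 1 pituitary tumor the call was lost (adjusted p = 0.0702 without tumor 6, 0.117 without tumor 7 and 0.148 without tumor 8), as it was without any 1 of pancreatic tumors 3, 4, 9, 10, 11 and 12 (adjusted p = 0.0533 to 0.0632). A second Fzd7 probe set lay at or below the array median in all tumors and gave 0.19 (adjusted p = 0.562).

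Fzd1 read 6.15, 7.66, 6.85, 7.43, 7.70, 7.55, 8.21, 6.92 and 7.32 in the pancreatic tumors, in the same order, and 8.45, 8.46 and 10.03 in the pituitary tumors. The groups did not overlap, though pancreatic tumor 10 was only just below the lowest pituitary tumor. The mean was 7.31 ± 0.60 in pancreatic and 8.98 ± 0.91 in pituitary tumors (SD, n = 9 and 3), a difference of -1.67 (SE 0.42, limma adjusted p = 0.0419). Pituitary tumor 8 carried much of it: without that tumor the difference was -1.15 (adjusted p = 0.244). It was also not past the threshold without pituitary tumor 6 (-1.94, adjusted p = 0.0852) or without any 1 of pancreatic tumors 3, 4, 9, 11 and 12 (adjusted p = 0.0563 to 0.0711). The call was lost too with quantile normalization (-1.53, adjusted p = 0.077) and with unmoderated variance (adjusted p = 0.0776). A second probe set, below the array median in all tumors, gave 0.13 (adjusted p = 0.77).

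Fzd3, a receptor known from axon guidance and planar polarity, was above the array median in every tumor. It read 10.35, 6.45, 9.65, 10.18, 9.39, 10.24, 8.76, 9.12 and 9.41 in pancreatic tumors, and 9.77, 9.81 and 9.33 in pituitary tumors, so that pancreatic tumor 2 was low and the rest surrounded the pituitary values. The difference of -0.35 (limma adjusted p = 0.806) is not a stable direction, since all 5 further Fzd3 probe sets gave a positive difference, 0.27 to 1.38, none past the threshold. Fzd5 read 4.25 to 7.02 in pancreatic tumors (median 5.97) and 5.94, 7.63 and 7.23 in pituitary tumors, a difference of -1.17 (95% interval -2.42 to 0.07, adjusted p = 0.286). The co-receptor Lrp6 was above the array median in every tumor and hardly differed, by -0.06 (95% interval -0.53 to 0.41), while Lrp5, its homolog, was above it in pancreatic tumor 2 (6.08) and in no other tumor. Fzd6 and Fzd10 were above the array median in all tumors, with differences of -0.43 and 0.16. Fzd4, the norrin receptor, peaked at 7.97 in pancreatic tumor 5, where the stroma list was also at its highest pancreatic mean, 8.73. The endothelium mean there was 7.39, against a highest of 7.65 in pancreatic tumor 9. A second Fzd4 probe set read only 6.38 in pancreatic tumor 5, against 5.44 to 6.22 in the other pancreatic tumors. Fzd2, Fzd8 and Fzd9 differed by -0.06, 0.39 and -0.45.

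The secreted antagonists held the largest difference of the set. Dkk3, a secreted member of the Dickkopf family whose effect on Wnt signals is less settled than that of Dkk1, read 6.08, 4.86, 5.05, 5.82, 5.45, 5.61, 6.55, 4.77 and 6.02 in pancreatic tumors 1, 2, 3, 4, 5, 9, 10, 11 and 12, and 10.89, 11.73 and 8.88 in pituitary tumors 6, 7 and 8. The lowest pituitary tumor was well above the highest pancreatic tumor, and the pancreatic values lay near the array median, above it in 5 of 9. The mean was 5.58 ± 0.60 in pancreatic and 10.50 ± 1.47 in pituitary tumors (SD, n = 9 and 3), a difference of -4.92 (SE 0.52, limma adjusted p = 0.000172). No fold is given, since 4 of the 9 pancreatic tumors were at or below the array median. Its other probe set gave -3.76 (adjusted p = 0.00028). The highest value came from pituitary tumor 7, the one with the lowest glial markers. The difference was -6.15 to -4.31 in the 23 alternatives run, and the call held wherever at least 2 pituitary tumors were left. The -6.15 came without pituitary tumors 6 and 8, which leaves a lone pituitary tumor.

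**Figure D3:**
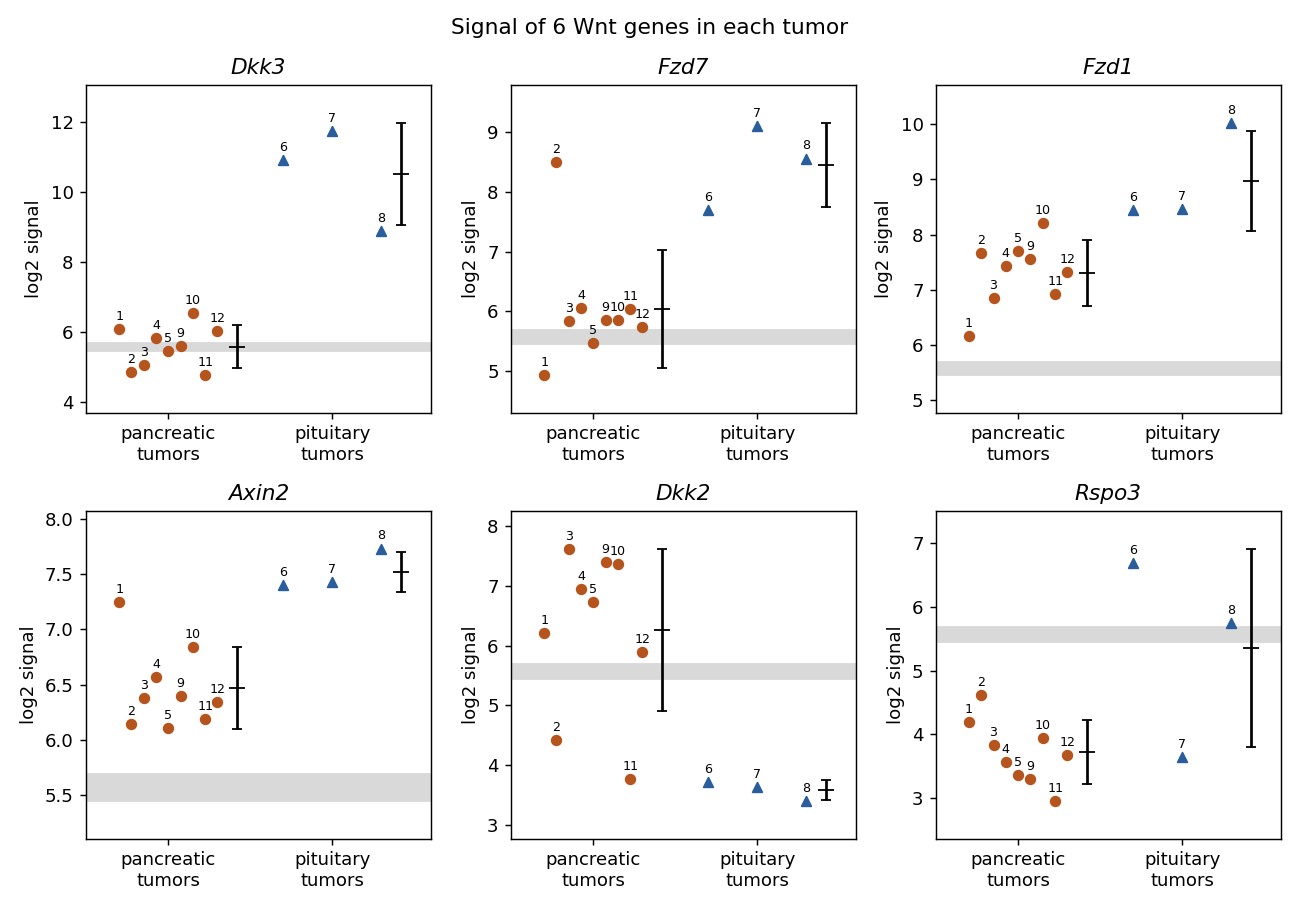
Log2 signal of Dkk3, Fzd7, Fzd1, Axin2, Dkk2 and Rspo3 in each pancreatic tumor (circles, left) and pituitary tumor (triangles, right), numbered by tumor, with the mean and SD of each group beside the points and the range of array medians as a grey band. Dkk3 separates the groups by more than the range of pancreatic tumors, and pancreatic tumor 2 reads 8.50 for Fzd7, inside the pituitary range.

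Dkk2, which like Dkk1 binds Lrp co-receptors, went the opposite way. It read 6.22, 4.42, 7.63, 6.95, 6.74, 7.41, 7.37, 3.77 and 5.90 in pancreatic tumors, and 3.71, 3.63 and 3.40 in pituitary tumors. All 3 pituitary tumors lay below the array median and below every pancreatic tumor, with pancreatic tumors 2 and 11 near them. The difference of 2.69 (95% interval 1.07 to 4.31) missed the threshold (limma adjusted p = 0.0626). It passed without pancreatic tumor 2 (2.92, adjusted p = 0.0285), without pancreatic tumor 11 (3.00, adjusted p = 0.0176) with array weights (3.07, adjusted p = 0.00518) and when tested over genes in place of probe sets (adjusted p = 0.0485). The threshold was missed in every other alternative run with at least 2 pituitary tumors. Among these were the fits without pituitary tumor 6 (limma adjusted p = 0.199), 7 (0.131) or 8 (0.229) and with unmoderated variance (0.107).

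Sfrp5, a Frizzled-related protein that binds Wnt ligands, was also above every pituitary tumor in each pancreatic tumor, at 6.01 to 8.55 (median 6.33) against 5.83, 5.85 and 5.66, but by only 1.01 (95% interval -0.10 to 2.12, limma adjusted p = 0.305). The 3 highest readings, 7.30, 8.55 and 7.92, came from pancreatic tumors 10, 11 and 12, whose array means were also the lowest of the pancreatic tumors, and without them the difference was 0.44. The other Sfrp5 probe set gave a like difference, 1.03 (adjusted p = 0.401), but its groups overlapped (5.74 to 8.79 in pancreatic tumors, 5.57 to 5.92 in pituitary tumors), and pancreatic tumor 1 was second highest in it, at 7.98. Wif1, which binds Wnt ligands directly, had the widest range of the set in pancreatic tumors, 6.42 log2 units. It read 8.97 and 7.61 in pancreatic tumors 3 and 4, at most 5.29 in the other pancreatic tumors, and 3.71, 2.85 and 6.35 in pituitary tumors 6, 7 and 8. Pancreatic tumors 3 and 4 also had the highest acinar marker means, 12.67 and 11.77. Pancreatic tumor 10 was next, at 10.21, but read 2.86 for Wif1. Pituitary tumor 8, with Wif1 at 6.35, had an acinar mean of 5.98. The difference of 0.24 (adjusted p = 0.942) changes sign with the tumors left out. Dkk1, Dkk4 and Sfrp2 stayed at or below the array median in all 12 tumors, and Sfrp1 and Sfrp4 above it, with differences of 0.28 and -0.34. Sfrp1 was read from a probe set of the same type as those of Wnt5b and Wnt3. Another of its 5 probe sets gave -0.68 (limma adjusted p = 0.253), with 6.31, 4.80 and 6.18 in pituitary tumors 6, 7 and 8. The remaining sets gave 0.01 to 0.14, and one of them lay at or below the array median in all 12 tumors.

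The R-spondin axis had no gene past the threshold (0 of 7, limma; 1, Rspo3, at an unadjusted p under 0.05). Rspo3, an R-spondin ligand, read 2.96 to 4.62 (median 3.67) in pancreatic tumors, all below the array median, and 6.69, 3.65 and 5.74 in pituitary tumors 6, 7 and 8. The 2 readings above the array median came from pituitary tumors 6 and 8, the ones with high glial markers. The difference was -1.64 (95% interval -2.75 to -0.53, adjusted p = 0.0941). It passed without pituitary tumor 7 (-2.50, adjusted p = 0.00219) and with array weights (-2.14, adjusted p = 0.0103), and against pituitary tumor 7 alone it was 0.06. Rspo2 was read from a probe set that barely moved. Its other probe set read at most 4.17 in pancreatic tumors and 8.24, 4.30 and 4.40 in pituitary tumors 6, 7 and 8 (difference -1.97, adjusted p = 0.107), so 1 tumor made the gap. Rspo1 was above the array median only in pancreatic tumors 10 (7.44) and 12 (5.85).

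Lgr4, a receptor for R-spondins, read 10.66 in pancreatic tumor 2, 6.25 to 8.40 in the other 8 pancreatic tumors, and 8.74, 8.41 and 9.28 in pituitary tumors. All pancreatic tumors but tumor 2 thus lay below the pituitary tumors. The difference was -0.98 (95% interval -2.49 to 0.52, limma adjusted p = 0.467) and without tumor 2 it was -1.33 (adjusted p = 0.0758). Rnf43, which clears Frizzleds from the membrane, was likewise highest in that tumor, with 6.18 in pancreatic tumor 2, 3.58 to 4.49 in the other pancreatic tumors and 4.02 to 4.80 in pituitary tumors. Its homolog Znrf3 was not at an extreme, with 7.91 there and 6.77 to 8.51 over the pancreatic tumors, against 6.73 to 7.46 in pituitary tumors (difference 0.64, adjusted p = 0.307). Lgr5, a stem cell marker in the intestine, read 3.85 to 5.71 in pancreatic tumors, 7 of 9 at or below the array median, and 4.93, 4.89 and 6.52 in pituitary tumors 6, 7 and 8, with a difference of -0.55 (95% interval -1.49 to 0.40).

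**Figure D4:**
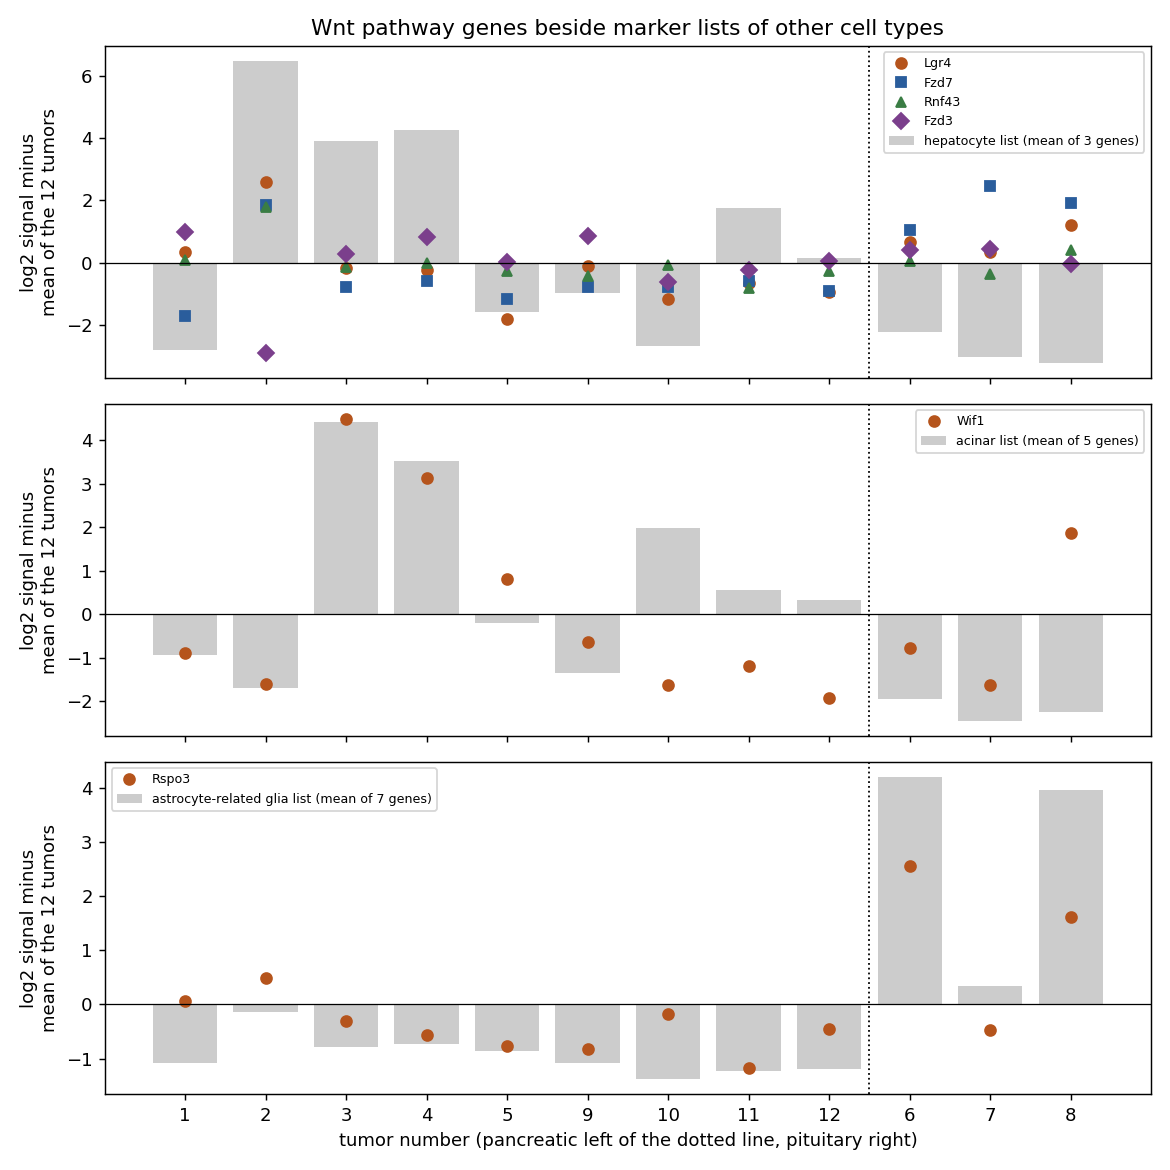
Log2 signal minus the mean of the 12 tumors, for genes (symbols) and for the mean of a marker list (bars), in each tumor, pancreatic left and pituitary right of the dotted line. Lgr4, Fzd7 and Rnf43 are high and Fzd3 low in pancreatic tumor 2, where the hepatocyte list has a mean of 14.66. Pancreatic tumors 3 and 4 have hepatocyte means of 12.08 and 12.44. Their log2 signals are 7.89 and 7.85 for Lgr4, 5.84 and 6.05 for Fzd7, and 4.27 and 4.40 for Rnf43. For Fzd3 they are 9.65 and 10.18. Wif1 is high in pancreatic tumors 3 and 4, which have the highest acinar means. It reads 2.86 in pancreatic tumor 10, where the acinar mean is 10.21. Rspo3 is high in pituitary tumors 6 and 8, which have the highest glial means.

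Axin2, a scaffold of the beta-catenin destruction complex that beta-catenin itself induces, was another gene higher in pituitary tumors. It read 7.25, 6.14, 6.38, 6.57, 6.11, 6.40, 6.84, 6.19 and 6.34 in pancreatic tumors, and 7.40, 7.43 and 7.73 in pituitary tumors, with pancreatic tumor 1 closest to the pituitary range. The mean was 6.47 ± 0.37 in pancreatic and 7.52 ± 0.18 in pituitary tumors (SD, n = 9 and 3), a difference of -1.05 (SE 0.22, limma adjusted p = 0.0212) or a 2.07-fold lower signal. This rests on 1 of its 2 probe sets: the other gave 0.65, in the opposite direction (limma adjusted p = 0.282). On that other set no tumor overlapped either, the lowest pancreatic reading (4.77) being just above the highest pituitary one (4.74). There all 3 pituitary tumors and 6 of the 9 pancreatic tumors were at or below the array median. Averaging both probe sets gave -0.20 (adjusted p = 0.549). The call was also lost without pituitary tumor 6 (-1.11, adjusted p = 0.0779) and without pituitary tumor 8 (-0.95, adjusted p = 0.124).

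The other feedback gene and the nuclear factors did not pass the threshold. Nkd1, a feedback inhibitor that binds Dishevelled, differed by 0.26 (95% interval -0.11 to 0.64), though another of its 4 probe sets gave -1.23 (limma adjusted p = 0.121). Lef1 differed by -0.20 and Tcf7l1 by 0.15. Tcf7l2, a Tcf factor studied for its role in islets, read 4.75 to 7.65 in pancreatic tumors and 6.87, 7.30 and 7.08 in pituitary tumors. The difference was -0.87 (95% interval -2.05 to 0.31, limma adjusted p = 0.406). A further Tcf7l2 probe set gave 0.61 (limma adjusted p = 0.0793) with no overlap between the groups, but lay at or below the array median in every tumor. The remaining sets gave -0.60 and -0.51. Fzd10os, a noncoding transcript on the strand opposite Fzd10, which the symbol rule takes in, differed by -0.01.

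A list of 59 further pathway genes was described in the same way; Kremen2, also on that list, is not analysed here. Of these, 2 were higher in pancreatic tumors (3.39%), 6 were higher in pituitary tumors (10.2%) and 51 did not pass, with a median difference of -0.09. Over all genes the shares were 1.63% and 4.29%, and with counts this small nothing particular to the list is read from them. Porcn, the acyltransferase that attaches the lipid every Wnt ligand needs for secretion, read 5.61 to 6.38 in pancreatic tumors (median 6.10) and 8.02, 7.35 and 8.45 in pituitary tumors. No tumor overlapped, the difference being -1.91 (SE 0.23, limma adjusted p = 0.000507). Tle4, a Groucho corepressor that binds Tcf factors, was lower in pancreatic tumors by a difference of -2.37 (adjusted p = 0.00747). Prickle1 of the planar polarity pathway, Dact3, which binds Dishevelled, Ror2, a Wnt5a receptor, and Ndp, a ligand of Fzd4, were also lower in pancreatic tumors, with differences of -1.91, -1.62, -1.26 and -1.12. Ndp was at or below the array median in every pancreatic tumor (4.28 to 5.01) and in pituitary tumor 7 (4.93). It read 5.95 and 6.47 in pituitary tumors 6 and 8, the ones with high glial markers. When all probe sets of a gene were averaged and genes were tested, Prickle1 gave -0.47 (adjusted p = 0.0677) and Dact3 -0.14 (adjusted p = 0.557). Ror2 missed the threshold with array weights (adjusted p = 0.0952), with quantile normalization (0.0594) and with unmoderated variance (0.0641), and Ndp with unmoderated variance (0.0599). The 2 genes higher in pancreatic tumors were Cd44, a hyaluronan receptor and known beta-catenin target in the intestine, at 11.36 ± 1.20 in pancreatic and 7.76 ± 0.15 in pituitary tumors (adjusted p = 0.00916), and Tspan12, a tetraspanin that aids norrin signaling through Fzd4, at 9.35 ± 0.52 in pancreatic and 7.62 ± 0.20 in pituitary tumors (adjusted p = 0.0064). Without pituitary tumor 8, Cd44 (adjusted p = 0.0536), Dact3 (0.0893), Ror2 (0.179) and Ndp (0.2) missed the threshold, as did Tle4 (0.0543), Prickle1 (0.101), Dact3 (0.111) and Ndp (0.169) without pituitary tumor 6. Ror2 (0.132) also missed it without pituitary tumor 7. Leaving out any 1 of pancreatic tumors 1, 10, 11 and 12 took Ror2 to 0.0505 to 0.0639, and any 1 of tumors 3, 4, 9, 10, 11 and 12 took Ndp to 0.0506 to 0.06, while Porcn and Tspan12 kept their calls with any 1 tumor left out. Beta-catenin itself (Ctnnb1) was at 12.25 ± 0.37 in pancreatic and 12.52 ± 0.29 in pituitary tumors and differed by -0.27 (95% interval -0.77 to 0.23).

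Between pancreatic tumors, tumor 2 was most often at an extreme, and not only in these genes: it was the highest or lowest for 39.6% of the members and for 42.4% of all genes. It was the highest of the 9 for 15 members and the lowest for 6, and the next most extreme tumors were tumor 5 (17 members in all) and tumor 11 (16). Its readings for Lgr4, Rnf43, Fzd7 and Lrp5 were the highest of any pancreatic tumor and those for Fzd3, Wnt10a and Wnt5a the lowest. The hepatocyte and neuroendocrine means of that tumor are given above, and the part of either tissue in these readings was not tested.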

How the data were processed

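Total RNA of 12 tumors, 9 pancreatic and 3 pituitary, was hybridised to Affymetrix mouse arrays, 1 per tumor. The values the authors deposited are log2 signals for each probe set in each tumor. Partek Genomics Suite is named for processing and RMA for a further analysis, and which made the deposited log2 values is not stated; the sources used here give no version of Partek. No further normalization was applied. Of 45101 probe sets, 64 controls were left out. The platform table gave 1 symbol to 34945 of the rest, several to 932 and none to 9160, and a gene was read from its single-symbol probe set with the highest mean. Differences were fitted with limma 3.58.1 in R 4.3.3 (lmFit, eBayes) over all 45037 probe sets, with Benjamini-Hochberg adjusted p under 0.05 as threshold. The script was tested on simulated data, and tables were made in Python 3.11.15 (numpy 2.4.6, pandas 2.3.3). The number of arrays limits the precision.

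The members and gene lists were chosen with earlier results of these data known. Genes were named by rule: all members past the threshold, the 8 largest differences that were not, the 6 widest pancreatic ranges, and pathway genes past the threshold. Genes outside this rule, named for their probe sets, for pancreatic tumor 2 or for their role, were chosen after their values were seen. Alternatives covered normalization, array weights, variance model, filter, probe set choice and tumors left out. Leaving out pituitary tumors 6 and 8 together was chosen after seeing the data. Normal pancreas and neuroblastoma arrays are not used here.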

Additional observations from a re-analysis of the deposited data

Results flagged for a closer look

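In 12 of the 53 genes, 1 pancreatic tumor lay far from the other 8, by the ratio of its gap to the range of the group (above Dixon's critical value, which chance alone passes in about 5% of groups). That is 22.6% of the set, against 16.2% of all genes. Pancreatic tumor 2 accounted for 7, or 13.2% of the set, against 9.33% of all genes, so its departure is not confined to Wnt genes. It was highest for Fzd7 (8.50, next 6.05), Lgr4 (10.66, next 8.40), Lrp5 (6.08, next 5.17), Rnf43 (6.18, next 4.49), Wnt16 (5.20, next 4.63) and Dkk4 (4.98, next 4.28), and lowest for Fzd3 (6.45, next 8.76). Wnt16 and Dkk4 lay at or below the array median throughout. Pancreatic tumor 5 was highest for Fzd4 (7.97, next 6.58) and for Wnt7b (7.40, next 7.24). A second Fzd4 probe set read 6.38 there, next 6.22. Single flags were Fzd8, highest in pancreatic tumor 1 (7.15, next 6.43), Fzd9, highest in pancreatic tumor 9 (6.35, next 5.72), and Dkk1, lowest in pancreatic tumor 10 (3.71, next 3.86) and at or below the array median in every tumor. What sets pancreatic tumor 2 apart was not tested.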

How the results depend on the processing

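The counts of members were 0 higher in pancreatic and 4 higher in pituitary tumors, and those of the further pathway genes 2 and 6. Array weights gave 1 and 5 members, and 3 and 11 pathway genes. The 11 held 5 of the 6 pathway genes called without weights. Averaging a gene's probe sets, with the test then run over genes, gave 1 and 1 members. The 1 gained, Dkk2, has a single probe set, so its difference is the same. What changed is the set of features from which the moderated variance and the adjustment are worked out. The unmoderated test gave 2 members higher in pituitary tumors. Without pancreatic tumors 10, 11 and 12 the member counts were 0 and 1 and the pathway counts 1 and 2. Without pancreatic tumors 2, 3 and 4 the count of members higher in pituitary tumors was 2. Leaving out pituitary tumors 6 and 8 together was chosen after seeing the data. It assumes that the lone pituitary tumor varies like the pancreatic ones, so no counts are given for it. Leaving out 1 tumor at a time gave 0 to 1 and 1 to 4 members, and 1 to 3 and 2 to 7 pathway genes. The low of 1 member higher in pituitary tumors came when pituitary tumor 6 or 8 was left out, and the low of 2 pathway genes when tumor 6 was.

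Of 524 differences recomputed for 23 named genes, 436 kept their direction and side of the threshold, 71 lost the call, 6 gained it and 11 changed sign. The setting without pituitary tumors 6 and 8 is among these, and with a lone pituitary tumor left its calls are not read. Rspo3 gave 0.06 in that setting. Leaving out 1 tumor gave Wif1 values of -0.49 (pituitary tumor 7) to 1.26 (pituitary tumor 8), negative also for pancreatic tumors 3 (-0.31) and 4 (-0.14) and pituitary tumor 6 (-0.06), and leaving out pancreatic tumors 2, 3 and 4 together gave -0.73. Wnt5a ran between -0.76 (pituitary tumor 7) and 0.03 (pituitary tumor 6), and gave 0.39 without tumors 6 and 8. Fzd3 gave 0.08 with array weights, 0.51 with the mean of its probe sets and -0.50 to 0.00 with 1 tumor left out, the last without pancreatic tumor 2. The cause was not tested. The same averaging took the calls of Prickle1 (-0.47), Dact3 (-0.14), Fzd1 (-0.77, adjusted p = 0.106), Fzd7 (-1.12, adjusted p = 0.0524) and Axin2 (-0.20, adjusted p = 0.549). Of the 4 calls among members, those of Fzd1, Fzd7 and Axin2 were also lost without pancreatic tumors 10, 11 and 12, and that of Dkk3 was kept. No paired analysis was possible because which tumors share a mouse is not given. With 3 pituitary tumors, each call rests on few arrays, and signals near the array median have little room to show a difference.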
